A study of Mus musculus with 8 samples.

Results

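Pax5, Ebf1, Foxo1, Tcf3 and Tcf12 are genes of factors that commit a progenitor to the B lineage, and Id3 encodes an inhibitor of some of them. All peaks of EBF1 and of Brg1 at these 6 genes are described here, from 4 peak lists of chromatin immunoprecipitation with sequencing (ChIP-seq) in mouse pro-B cells. A peak was counted at a gene when its summit, the base of highest fragment pileup, lay between the gene's bounds on GRCm38. A summit outside every protein-coding gene was also counted when the nearest bound belonged to 1 of the 6 genes and lay within 100 kb. By this rule 39 of the 5757 peaks of the 4 lists were at the 6 genes. None of the 5 peaks of the EBF1 list after dTAG-13 was among them, against 4 of the 312 peaks of the EBF1 list in DMSO. The Brg1 list after dTAG-13 gave 32 of its 5206 peaks, against 3 of the 234 peaks of the Brg1 list in DMSO.

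The pro-B cells had been transformed with A-MuLV (Abelson murine leukaemia virus), and their endogenous EBF1 had been replaced by an exogenous modified gene, in all groups alike. The genotype labels are EBF1-dTAG_C and EBF1-dTAG_N, and dTAG-13 is a small molecule that directs proteins carrying a dTAG degron to proteasomal degradation. EBF1 was precipitated (antibody 1C) from EBF1-dTAG_C cells given 0.5 µM dTAG-13 for 6 h and from EBF1-dTAG_C cells given DMSO. Brg1 was precipitated (antibody ab110641) from EBF1-dTAG_N cells given 0.5 µM dTAG-13 for 6 h and from EBF1-dTAG_N cells given DMSO. For the DMSO cells the treatment label gives 6 h and the sample titles give 0 h. Each of these 4 groups is 1 library, so differences between conditions lack a replicate check and none was tested. EBF1 and Brg1 were also mapped in different lines with different fixation, EGS and formaldehyde for Brg1 and formaldehyde alone for EBF1, and whether a line is 1 clone is not given in the sources used here. How the endogenous Ebf1 locus was altered is likewise not given, which bears on the peaks within Ebf1 itself.

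EBF1 is a transcription factor that starts the B-cell programme in lymphoid progenitors. PAX5, a paired-domain factor, holds cells in that programme and represses the genes of other lineages. FOXO1 is a forkhead factor needed for early B-cell genes such as Il7r and the Rag genes. Tcf3 encodes the E proteins E12 and E47 and Tcf12 encodes HEB, helix-loop-helix factors that bind E-box sequences. ID3 lacks a DNA-binding region and holds E proteins off DNA as inactive dimers. In the textbook account the factors other than ID3 bind near each other's genes and sustain each other's expression. Brg1, encoded by Smarca4, is the motor subunit of BAF chromatin remodellers, which move nucleosomes at promoters and enhancers.

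The Brg1 libraries differed in the background recovered from their peaks, and the EBF1 libraries hardly did. The number of fragments at each summit was recovered from the authors' fold enrichment and p. The lowest background was 2.15 fragments per base in the Brg1 dTAG-13 library and 0.607 in the Brg1 DMSO library, a ratio of 3.54. For EBF1 the same background, without the scaling applied in the call, was 2.01 fragments per base after dTAG-13 and 2.05 in DMSO. The median summit held 35 fragments in the EBF1 dTAG-13 list, 26 in EBF1 DMSO, 18 in Brg1 dTAG-13 and 13 in Brg1 DMSO. A check of the labelled cell type against genes that mark pro-B cells found Brg1 peaks at 8 of 10 pro-B genes after dTAG-13 and at 5 of 10 in DMSO. Of all protein-coding genes 12.2% had one after dTAG-13 and 0.817% in DMSO. Brg1 peaks stood at 3 of 8 T-cell genes after dTAG-13 (Cd3d, Lck and Zap70) and at 0 of 8 in DMSO, and at 0 of 8 myeloid genes in each list. Pro-B and T-cell counts were both higher in the longer Brg1 list, that after dTAG-13. The part of list length in these counts, and the part of the T-cell counts in the results, were not tested.

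The sequences next to the start sites were read first, because 5 of the 6 genes had Brg1 summits within 1 kb of an annotated start after dTAG-13, beside 4.99% of the 17492 protein-coding genes with a start in RefSeq's table. RefSeq gives 9 windows of 300 bases for the 6 genes on GRCm38.p6, from 250 bases before a start to 50 after it. A search of both strands found the core word CCCNNGGG, bound by EBF1, in 1 of the 9 windows, that of Foxo1, and in 15.6% of 21263 windows of protein-coding genes. The same Foxo1 match has a T before it and an A after it, the full EBF1 word, which 0.959% of all windows hold. It lies 92 to 83 bases before the start, in capitals below. The stretch is on the plus strand at chr3:52268087-52268336, and the nearest Brg1 dTAG-13 peak ends 132 bp before it. No EBF1 peak lay there in either list.
Foxo1, before the start: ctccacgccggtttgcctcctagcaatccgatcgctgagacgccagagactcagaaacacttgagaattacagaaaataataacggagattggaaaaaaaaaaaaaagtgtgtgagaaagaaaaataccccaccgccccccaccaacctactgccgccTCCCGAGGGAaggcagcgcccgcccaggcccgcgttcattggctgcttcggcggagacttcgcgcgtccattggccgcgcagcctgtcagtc
Tcf12 has 3 start sites in the table, and the first 2 are shown because a Brg1 dTAG-13 peak of 602 bp covers the whole stretch before the second and ends 47 bp short of the stretch before the first. Both are on the minus strand, at chr9:72111820-72112069 for the first start and chr9:72111202-72111451 for the second. In the first, capitals mark an E-box, CAGCTG, 240 to 235 bases before the start. That word was in 1 of the 9 windows and in 15.6% of all windows. In the second, capitals mark the 21 bases centred on the Brg1 summit.
Tcf12, before the first start: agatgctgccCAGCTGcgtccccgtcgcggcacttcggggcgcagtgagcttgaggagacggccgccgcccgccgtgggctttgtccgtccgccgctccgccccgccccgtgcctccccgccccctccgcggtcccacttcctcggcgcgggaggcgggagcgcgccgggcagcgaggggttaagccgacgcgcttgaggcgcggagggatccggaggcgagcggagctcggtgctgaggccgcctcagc
Tcf12, before the second start: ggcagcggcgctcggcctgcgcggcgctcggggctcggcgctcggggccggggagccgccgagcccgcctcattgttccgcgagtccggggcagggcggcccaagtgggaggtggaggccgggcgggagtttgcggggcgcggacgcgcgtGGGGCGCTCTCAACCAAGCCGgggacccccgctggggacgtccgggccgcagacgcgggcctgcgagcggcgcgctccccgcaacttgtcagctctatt
Of the bases shown, 76.8% before the first Tcf12 start and 78% before the second are G or C, against 56% in the Foxo1 stretch. Among the other words searched on both strands, the E-box CAGGTG was in 0 of the 9 windows and 19.7% of all, and the forkhead word GTAAACA in 0 of the 9 and 3.01% of all. The Ikaros word TGGGAA was in 1 of the 9, at Ebf1, and in 24.5% of all. These matches describe letters in the windows and not binding.

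EBF1 peaks stood at 0 of the 6 genes after dTAG-13, against 4 of the 6 in DMSO, Pax5, Ebf1, Foxo1 and Id3. Of all 21900 protein-coding genes, 0.0228% had an assigned EBF1 peak after dTAG-13 and 1.28% had one in DMSO. Brg1 peaks stood at 6 of the 6 genes after dTAG-13, against 3 of the 6 in DMSO, Pax5, Foxo1 and Id3. The shares of all protein-coding genes with a Brg1 peak were 12.2% after dTAG-13 and 0.817% in DMSO. Long genes have more room for a summit, and Pax5, Ebf1 and Tcf12 are each longer than 100 kb. Among the 2429 protein-coding genes of at least that length, 1.85% had an EBF1 DMSO summit in the body, as did Pax5 and Ebf1. Brg1 summits were in the body of 19% of these long genes after dTAG-13, as in all 3 of the long members, and of 1.65% in DMSO, as in Pax5.

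**Figure D1:**
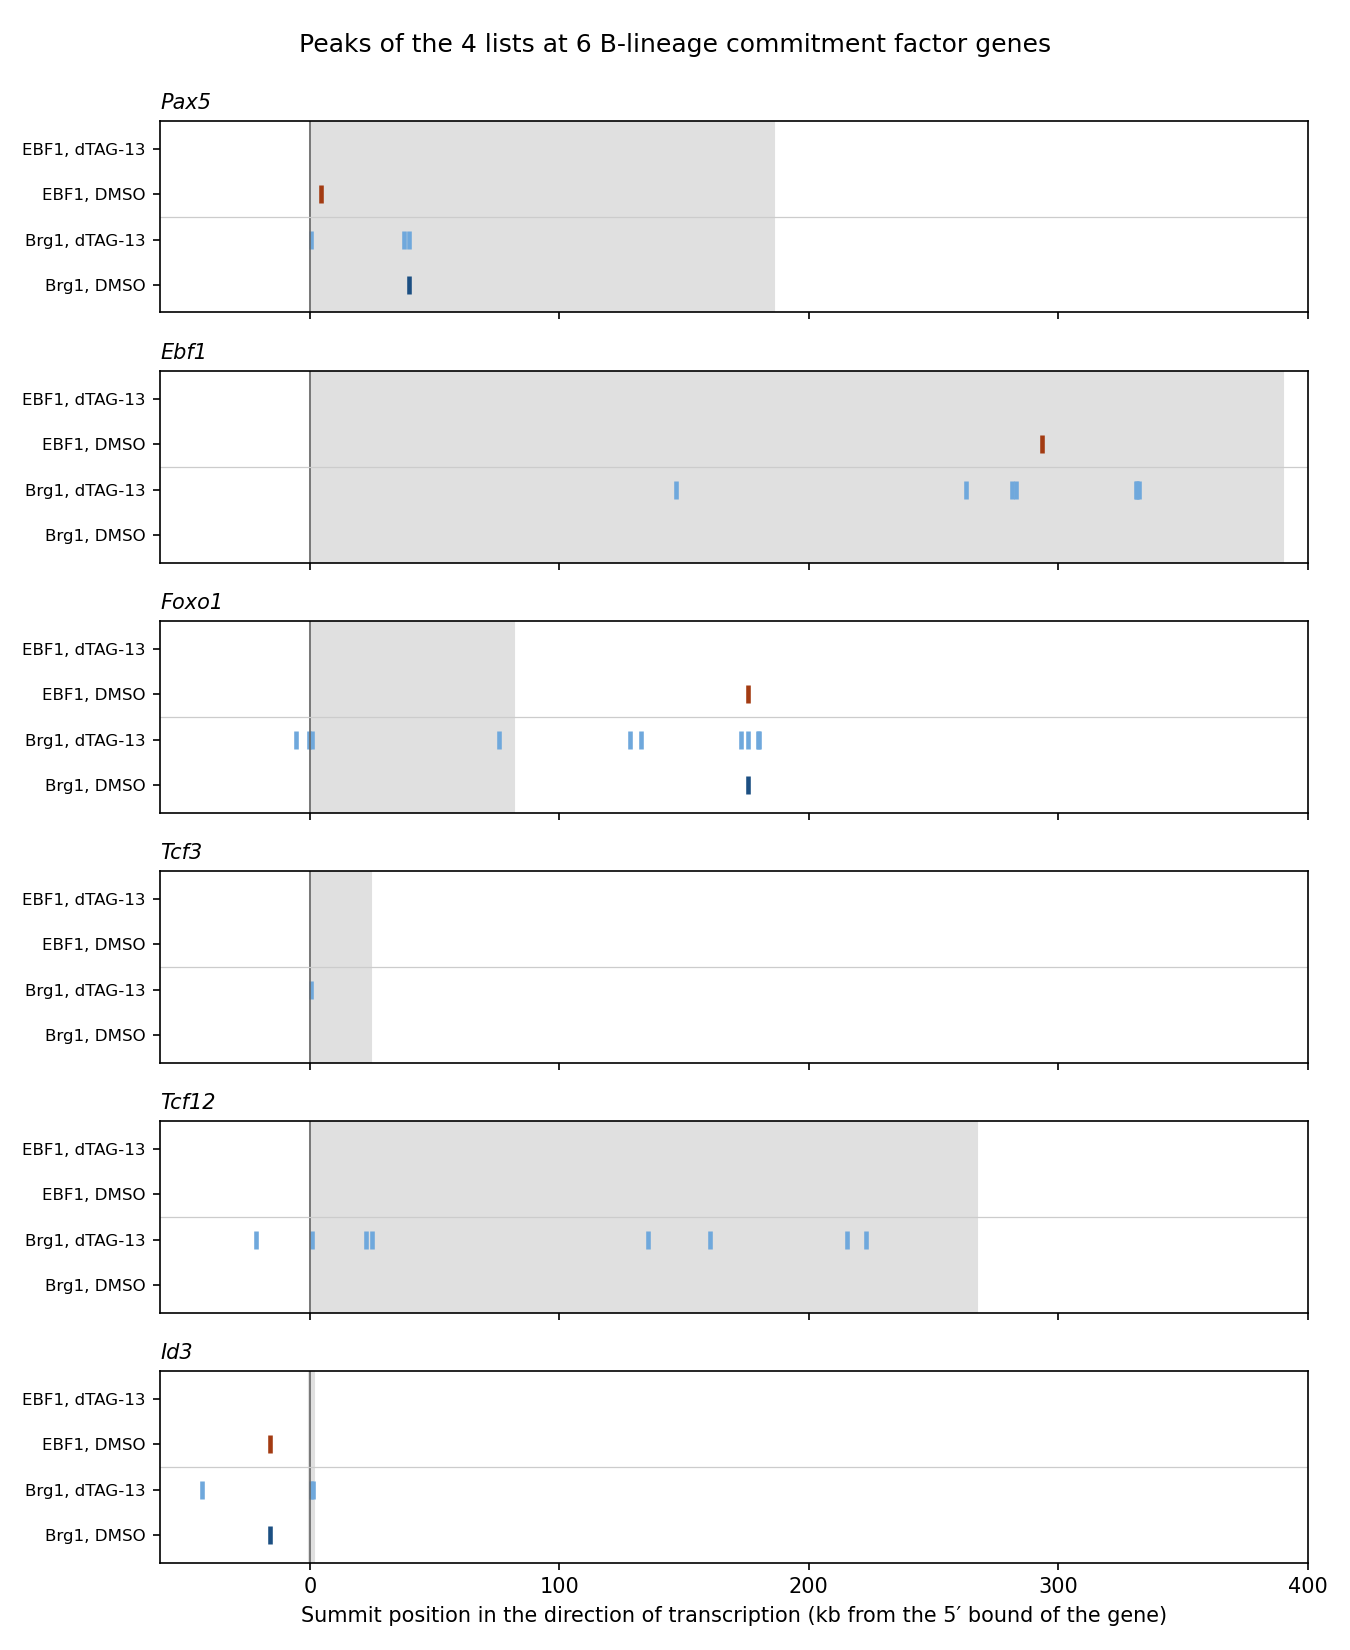
Positions of the 39 peak summits at the 6 genes, in kb from the gene's 5′ bound in the direction of transcription, with 1 row for each list and the gene body shaded. The EBF1 dTAG-13 row is empty in each panel, the EBF1 DMSO row holds 4 summits, the Brg1 dTAG-13 row holds 32 and the Brg1 DMSO row holds 3.

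Ebf1, the gene that encodes EBF1, lies on chromosome 11 at 44618100-45008096, plus strand, and spans 390.0 kb. The EBF1 dTAG-13 list had no peak there. In DMSO, EBF1 had 1 peak, at chr11:44911384-44911557, with its summit 293388 bp downstream of the 5′ bound, which is 75.2% of the way through the gene. Its fold enrichment at the summit, a ratio of fragment pileup to local background, was 7.18 from 22 fragments, and it ranked 175 of 312 by p in its list. Brg1 had 7 peaks in the gene body after dTAG-13 and none in DMSO. The 7 became 3 when every peak, within a gene or not, went to the nearest gene bound within 100 kb, and 3 when both Brg1 lists were held to the same lowest p. In DMSO the nearest Brg1 summit was 1552593 bp from the EBF1 site. None of the 7 coincided with the EBF1 site, the nearest summit being 10281 bp away.

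The Brg1 peaks of Ebf1 lay far into the gene and none was near a start. The first stood at chr11:44764704-44764949, 146754 bp from the 5′ bound, with fold enrichment 2.99 and 17 fragments. The next, at chr11:44880803-44881305, was 263096 bp in, with fold enrichment 2.77 and 18 fragments, and its fold was the lowest of the 32. A pair upstream of the EBF1 site, at chr11:44899539-44900006 and chr11:44901197-44901410, had fold enrichments of 4.08 from 15 fragments and 3.82 from 12 fragments. Beyond the EBF1 site came a run of 3 peaks within 1.15 kb, the closest spacing at any of the 6 genes. Its peaks were at chr11:44949249-44949613 (fold 4.05, 20 fragments), chr11:44949752-44950076 (fold 4.14, 17 fragments) and chr11:44950178-44950395 (fold 3.48, 13 fragments). The best ranked of the 7 was 2609 of 5206 by p, so all 7 ranked below the median of their list.

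Pax5 lies on chromosome 4 at 44524748-44710694, minus strand, and spans 185.9 kb. It held the best ranked peaks of the 6 genes in both the EBF1 DMSO and the Brg1 dTAG-13 lists. EBF1 had no peak at Pax5 after dTAG-13 and 1 in DMSO, at chr4:44706067-44706334, with its summit 4503 bp downstream of the 5′ bound. That peak had fold enrichment 8.26 from 35 fragments and ranked 62 of 312. Its −log10 p, 21.3, was the only one of the 4 EBF1 peaks above 14.2, the lowest value in the list of 5 peaks after dTAG-13. The other 3 had −log10 p of 13.05 at Ebf1, 10.1 at Id3 and 9.46 at Foxo1, below the weakest peak that was called after dTAG-13.

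Brg1 stood at a single Pax5 site in both conditions, far from the EBF1 site. After dTAG-13 the peak was at chr4:44670945-44671650, 706 bp wide, with its summit 39495 bp from the 5′ bound, fold enrichment 12.2 and 52 fragments. It ranked 4 of 5206. In DMSO the peak was at chr4:44671117-44671311, 195 bp wide, with fold enrichment 6.44 and 16 fragments, and ranked 104 of 234. The summits were 24 bp apart. Folds are relative to each library's own background and were not compared between lists. Scaled by the ratio of backgrounds to the DMSO library, the 52 fragments after dTAG-13 come to 14.7, beside the 16 in DMSO. Another 2 peaks were in the dTAG-13 list alone. One, at chr4:44710278-44710638, had its summit 275 bp downstream of the start, with fold enrichment 4.06 and 17 fragments, and was the nearest Brg1 dTAG-13 summit to the EBF1 site, at 4228 bp. The nearest in DMSO was the shared site, at 34968 bp. The other, at chr4:44672822-44673051, lay 37745 bp from the 5′ bound, beside the strong site, with fold enrichment 3.32 and 19 fragments.

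Foxo1 lies on chromosome 3 at 52268337-52350109, plus strand, and spans 81.8 kb. Its EBF1 peak and its only Brg1 DMSO peak stood together beyond the 3′ end of the gene. The next nearest protein-coding gene to the EBF1 summit, Maml3, is 338.6 kb away, on the 5′ side of Foxo1. EBF1 had no peak at Foxo1 after dTAG-13 and 1 in DMSO, at chr3:52443913-52444067, with its summit 93840 bp past the end of the gene. It had fold enrichment 4.51 and 25 fragments and ranked 259 of 312, the lowest rank of the 4 EBF1 peaks. Brg1 had a peak over the same site in both conditions. After dTAG-13 it was 1008 bp wide, at chr3:52443837-52444844, with fold enrichment 7.34, 29 fragments and rank 167 of 5206. In DMSO it was 308 bp wide, at chr3:52443875-52444182, with fold enrichment 7.56, 13 fragments and rank 90 of 234. The EBF1 summit was 199 bp from the Brg1 summit after dTAG-13 and 27 bp from it in DMSO. The 29 fragments after dTAG-13 scale to 8.20 by the same ratio, beside the 13 in DMSO.

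Foxo1 had the most Brg1 peaks of the 6 genes after dTAG-13, 10, of which 6 were past its end. A group of 4 over 7.79 kb held the shared site. Beside that site were peaks at chr3:52440867-52441318 (fold 3.15, 18 fragments), chr3:52447920-52448213 (fold 4.56, 15 fragments) and chr3:52448379-52448655 (fold 3.91, 16 fragments). Nearer the gene, 46524 and 50942 bp past its end, stood a pair at chr3:52395994-52396824 (fold 5.88, 20 fragments) and chr3:52400367-52401155 (fold 6.40, 21 fragments). The start was flanked by a peak 471 bp upstream, at chr3:52267744-52267955 (fold 4.65, 22 fragments), and one 618 bp downstream, at chr3:52268668-52269050 (fold 4.67, 16 fragments). The printed stretch with the EBF1 word lies between them. The remaining 2 were 5641 bp upstream, at chr3:52262538-52262880 (fold 3.99, 13 fragments), and 75641 bp into the gene, at chr3:52343657-52344091 (fold 3.47, 17 fragments).

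The limit of 100 kb falls within this group of sites. The outermost peak counted was 98454 bp past the end of Foxo1, and the first not counted was a Brg1 dTAG-13 peak at 108628 bp, with fold enrichment 3.98 and 23 fragments. Beyond it were Brg1 dTAG-13 peaks at 109775, 114777, 116135 and 118258 bp. The last of these, at chr3:52467928-52468591 (fold 6.64, 25 fragments), overlapped a Brg1 DMSO peak at chr3:52467927-52468150 (fold 8.67, 15 fragments) that was likewise not counted. No EBF1 peak stood between 100 kb and that site.

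**Figure D2:**
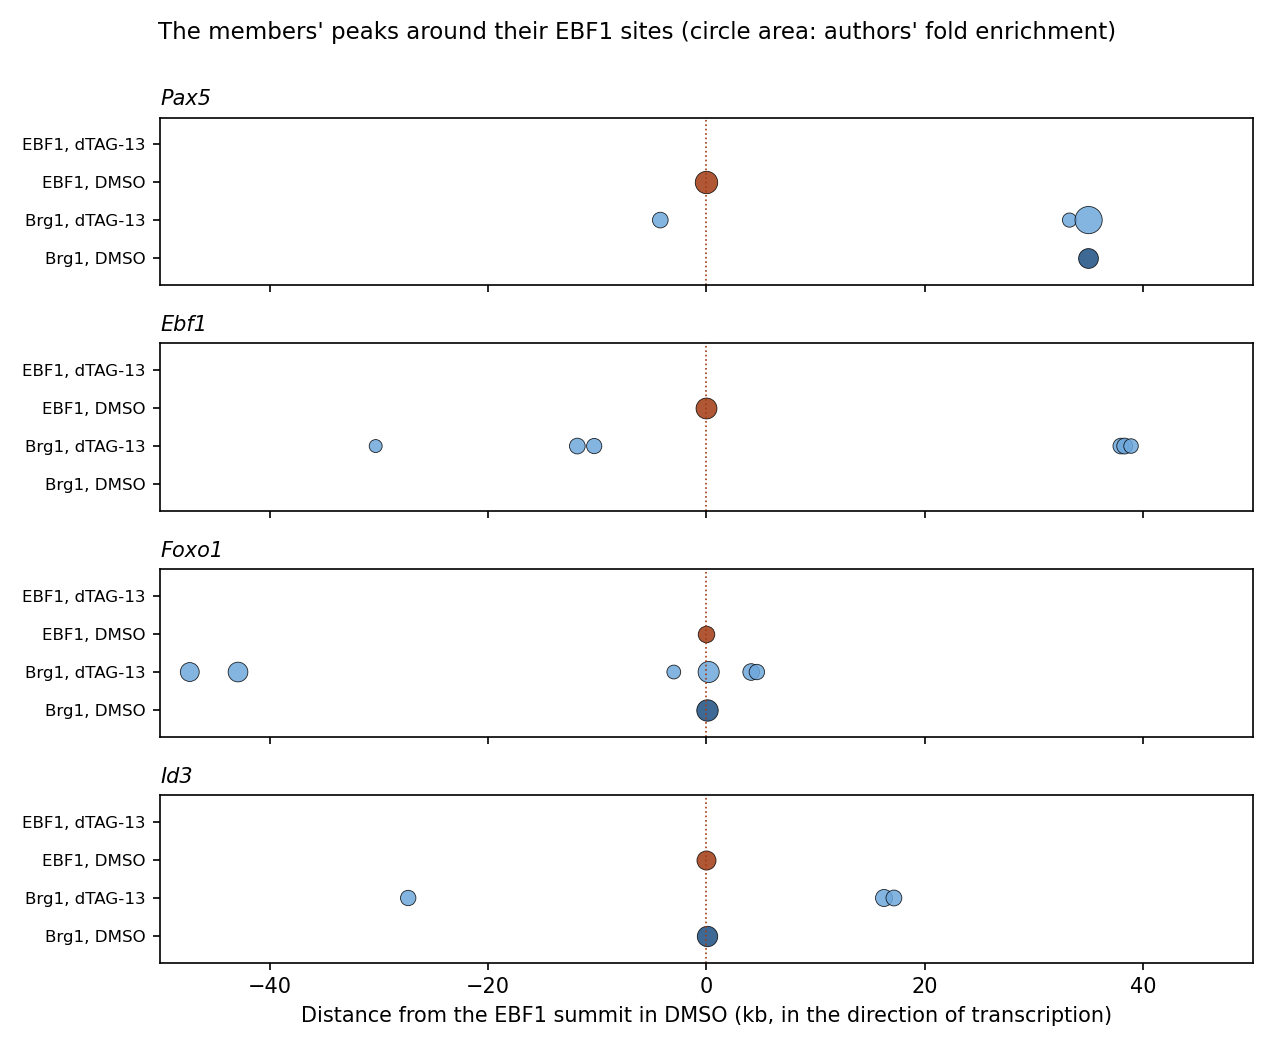
Peaks of the 4 lists within 50 kb of the EBF1 DMSO summit (0 on the axis, kb in the direction of transcription) at the 4 genes that have one; circle area is the authors' fold enrichment. Brg1 summits of the dTAG-13 and DMSO lists both sit on the EBF1 site at Foxo1, a Brg1 summit of the DMSO list alone sits on it at Id3, and at Pax5 and Ebf1 none does.

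Id3, the inhibitor, is a short gene of 1.57 kb on chromosome 4 at 136143822-136145392, plus strand. EBF1 had no peak there after dTAG-13 and 1 in DMSO, 15897 bp upstream of the gene, at chr4:136127834-136128024. It had fold enrichment 5.96 and 18 fragments and ranked 250 of 312. E2f2 is the next nearest protein-coding gene, 44.3 kb from the site. Brg1 was not called over this site after dTAG-13. In DMSO it had a peak at chr4:136127805-136127988, with fold enrichment 6.85 and 10 fragments and rank 149 of 234, and its summit was 3 bp from that of EBF1. It was the 1 Brg1 DMSO peak of the 6 genes with no overlapping peak in the dTAG-13 list. Scaled by the ratio of backgrounds to the dTAG-13 library, its 10 fragments come to 35.4. The fewest at any summit called after dTAG-13 was 10. Why no peak was called over this site was not tested.

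The Brg1 peaks called around Id3 after dTAG-13 were at other positions, of which the nearest was 16256 bp from the EBF1 site. A peak at chr4:136144078-136144303 had its summit 362 bp downstream of the start, with fold enrichment 4.77 and 15 fragments. Its neighbour at chr4:136144798-136145172 was 1267 bp downstream, near the end of the gene, with fold enrichment 4.14 and 17 fragments. The farthest, at chr4:136100555-136100765, lay 43211 bp upstream of Id3 and 47.2 kb from Rpl11, a ribosomal protein gene, with fold enrichment 3.91 and 16 fragments. None of the 3 overlapped a peak called in DMSO. Scaled by the ratio of backgrounds to the DMSO library, they held 4.24, 4.81 and 4.52 fragments, in the order given. The fewest at any summit called in DMSO was 8, and whether Brg1 was at these positions in DMSO was not tested.

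The E protein genes had no EBF1 peak in either condition and no Brg1 peak in DMSO. Tcf3 lies on chromosome 10 at 80409541-80433976, minus strand, and spans 24.4 kb. Its single peak, of Brg1 after dTAG-13, was at chr10:80433241-80433521, with the summit 198 bp downstream of the annotated start, fold enrichment 4.41 and 14 fragments. It ranked 3432 of 5206.

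Tcf12 lies on chromosome 9 at 71844252-72111893, minus strand, spans 267.6 kb and had 8 Brg1 peaks after dTAG-13, 7 of them in the gene body. The peak over the second start, at chr9:72111172-72111773, had its summit 89 bp upstream of that start, with fold enrichment 5.09 and 15 fragments. A peak at chr9:71896418-71896783 stood 405 bp upstream of the third start, deep in the gene, with fold enrichment 5.41, the highest of the 8, and 18 fragments. The 250 bases before the third start are 34.8% G or C, less than before the other two starts. Between the starts lay peaks 22524 and 24690 bp from the 5′ bound, at chr9:72089289-72089543 (fold 4.78, 16 fragments) and chr9:72086898-72087272 (fold 4.14, 17 fragments). Further in were peaks at chr9:71976094-71976301 (fold 4.70, 15 fragments) and chr9:71951310-71951717 (fold 4.15, 24 fragments). The innermost peak, at chr9:71888628-71889039, had fold enrichment 3.91 and 15 fragments. The 1 peak outside the gene was 21512 bp upstream, at chr9:72133286-72133496, with fold enrichment 4.13 and 18 fragments. The 8 peaks ranked between 1320 and 4033 of 5206, with a median fold of 4.43.

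By median fold the EBF1 DMSO and Brg1 DMSO peaks of the 6 genes stood close to the middle of their lists. The Brg1 dTAG-13 peaks stood lower, between the lower quartile of their list, 3.90, and its median. Of these, the peaks at Pax5 and at the distal Foxo1 site had the highest ranks, 4 and 167 of 5206. Next were the Foxo1 peaks 50942 and 46524 bp past its end, at 545 and 822. The 4 EBF1 DMSO peaks had a median fold of 6.57, beside 6.68 over all 312, and 1 of them, at Pax5, ranked above the median of the list by p. The 32 Brg1 dTAG-13 peaks had a median fold of 4.14, beside 4.45 over all 5206, and 10 of them ranked above its median. The 3 Brg1 DMSO peaks had a median fold of 6.85, beside 6.50 over all 234. None of the peaks at the 6 genes had a local background above 5 times the lowest of its list, the highest ratios being 2.73 in Brg1 dTAG-13, 2.70 in Brg1 DMSO and 2.26 in EBF1 DMSO.

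**Figure D3:**
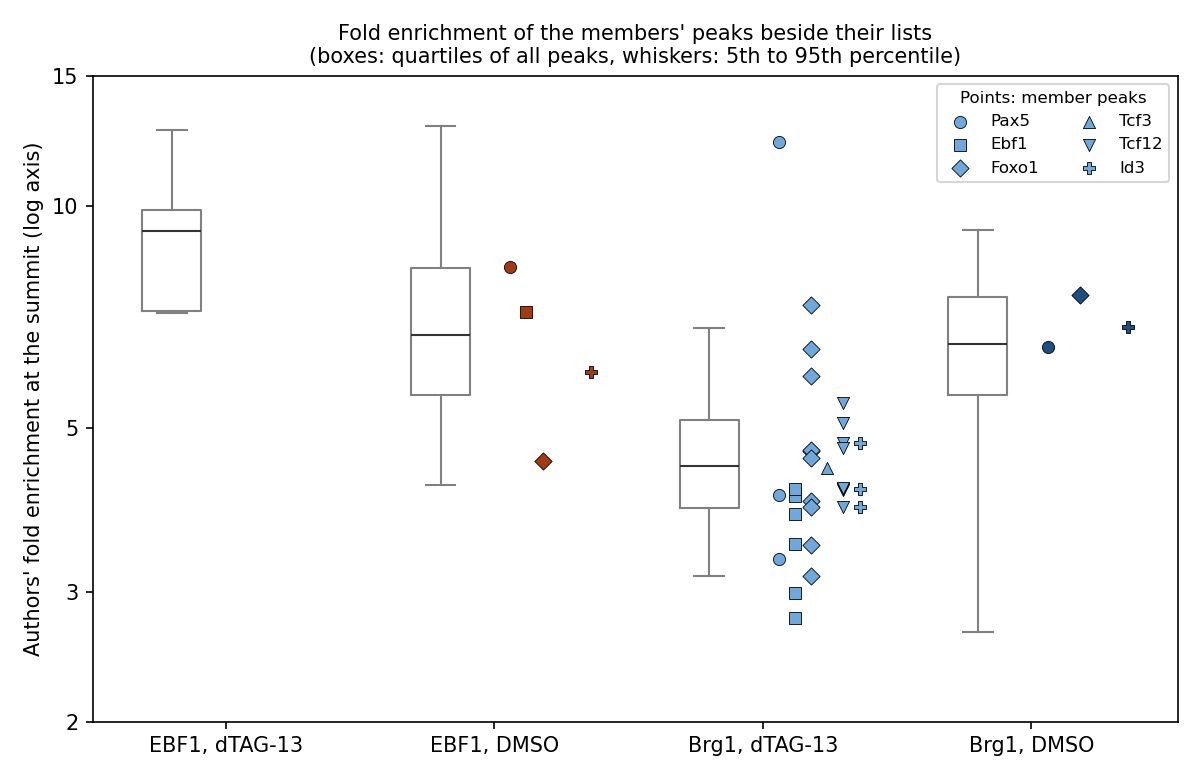
The authors' fold enrichment at each summit of the 6 genes (points, log axis) beside the quartiles of all peaks of the same list (boxes, with whiskers from the 5th to the 95th percentile; the EBF1 dTAG-13 box rests on 5 peaks and has no points). One Brg1 dTAG-13 point, the Pax5 site at 12.2, stands above the rest of its column, and folds compare within a list only.

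Which sites were shared between conditions was read from overlaps of at least 1 bp. The 95% intervals given are exact Clopper-Pearson intervals and cover counting error only. Of the 4 EBF1 DMSO peaks, 0 overlapped an EBF1 dTAG-13 peak (interval 0 to 60.2%), and of all 312 the share was 1.6%. Brg1 DMSO peaks at the 6 genes overlapped a Brg1 dTAG-13 peak in 2 of 3 cases, Pax5 and Foxo1 (66.7%, interval 9.43 to 99.2%), and the share over all 234 was 54.3%. Read from the longer list, 2 of the 32 Brg1 dTAG-13 peaks overlapped a DMSO peak (6.25%, interval 0.766 to 20.8%), beside 2.42% over all 5206. With a reciprocal overlap of 50%, chosen as an alternative, neither site counted as shared, the dTAG-13 peaks being 706 and 1008 bp wide and the DMSO peaks 195 and 308 bp. With so few peaks at the 6 genes, each of these intervals includes the share of its whole list.

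EBF1 and Brg1 peaks coincided at Foxo1 and Id3. Of the 4 EBF1 DMSO peaks, 1 overlapped a Brg1 dTAG-13 peak, at Foxo1 (25%, interval 0.631 to 80.6%), against 17.9% of all 312. With Brg1 DMSO peaks the count was 2 of 4, at Foxo1 and Id3 (50%, interval 6.76 to 93.2%), against 14.1% of all 312. Seen from Brg1, 1 of the 32 dTAG-13 peaks and 2 of the 3 DMSO peaks overlapped an EBF1 DMSO peak, beside 1.09% of all 5206 and 18.8% of all 234. These overlaps join libraries of different lines.

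The Brg1 dTAG-13 list held 29 more peaks at the 6 genes than the DMSO list. Over the whole lists the counts were 5206 after dTAG-13 and 234 in DMSO, and the 6 genes' share of the list was 0.615% after dTAG-13 and 1.28% in DMSO. Scaled by the ratio of the lowest backgrounds, a single statistic that stands in for read totals, the summits of the 32 peaks held between 3.39 and 14.7 fragments, with a median of 4.81. The fewest at any summit called in DMSO was 8, which 2 of the 32 reached, the Pax5 and Foxo1 sites that were called in DMSO as well. The other 30 scaled to fewer than 8. Over the whole dTAG-13 list, 5.21% of peaks reached 8. The scaling treats signal and background as growing together, and at the shared sites it gave 14.7 fragments beside 16 in DMSO at Pax5 and 8.20 beside 13 at Foxo1. Whether depth accounts for the added peaks was not tested.

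**Figure D4:**
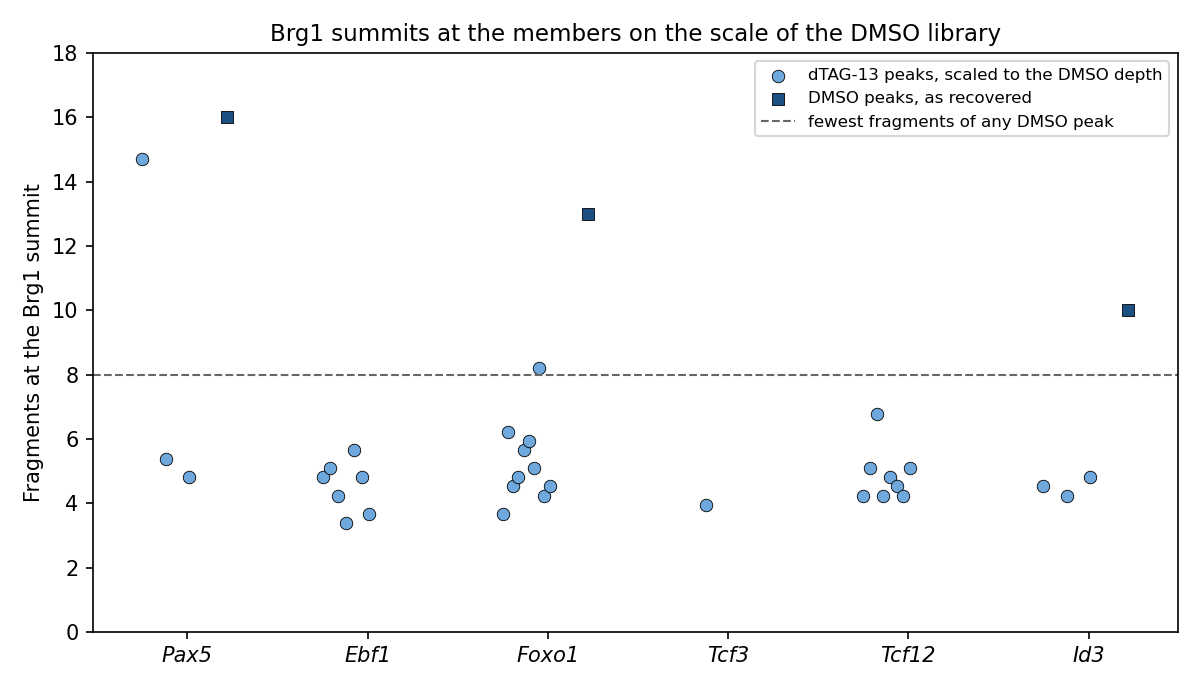
Fragments at each Brg1 summit of the 6 genes, with the dTAG-13 peaks (circles) divided by the ratio of library backgrounds of 3.54 and the DMSO peaks (squares) as recovered. The dashed line is the fewest fragments of any DMSO peak, 8, and 2 of the 32 circles, at Pax5 and Foxo1, are above it.

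Within 1 kb of an annotated start, Brg1 dTAG-13 summits stood at 5 of the 6 genes, all but Ebf1. In DMSO, Brg1 had such a summit at 0 of the 6 genes and at 0.0457% of all genes with a start given. EBF1 DMSO summits were within 1 kb of a start at 0 of the 6 and at 0.212% of all, and the EBF1 peak nearest to a start was the one at Pax5. Of the 7 Brg1 dTAG-13 summits that were within 1 kb of a start at the 6 genes, 4 were downstream of the nearest start, with a median position of 198 bp. The Tcf12 summit 89 bp upstream of the second start counted as upstream, though it is downstream of the first. Over the whole list 893 summits were that close, 61.9% of them downstream (exact interval 58.7 to 65.1%), with a median position of 123 bp. The shares are descriptive, since 7 summits at 5 genes are not replicates of a condition.

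**Figure D5:**
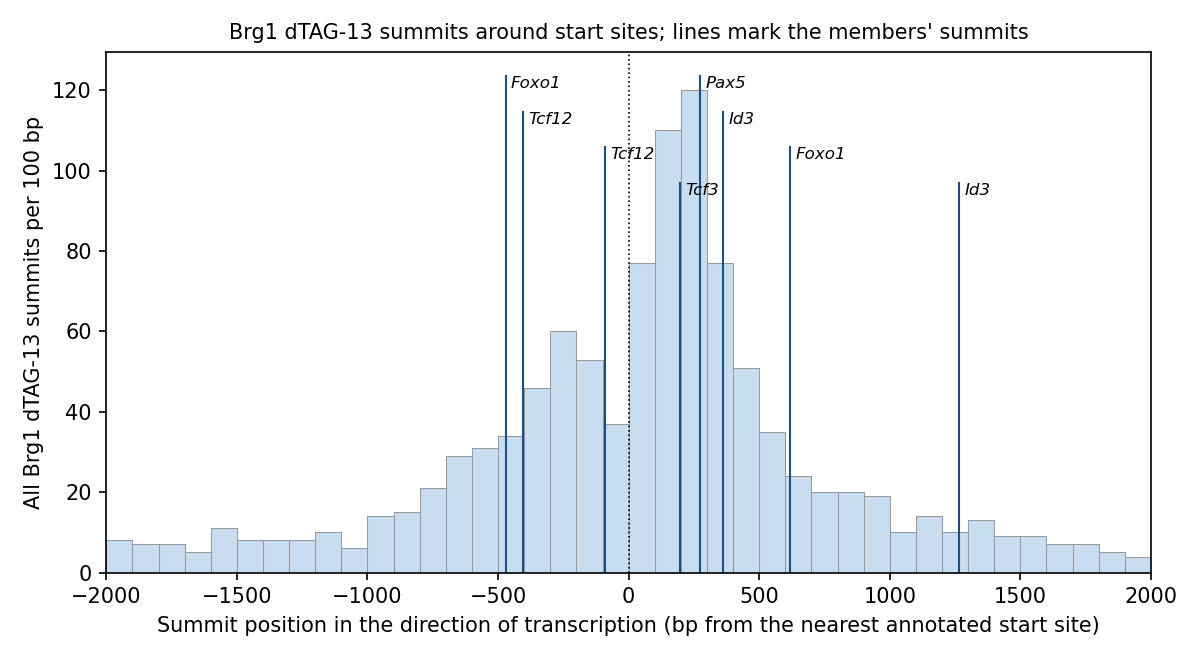
Summits of the Brg1 dTAG-13 list per 100 bp around the nearest annotated start (bars, bp in the direction of transcription), with lines at the summits of the 6 genes. The lines at Pax5, Tcf3 and Id3 fall downstream of the start, those at Tcf12 upstream, and Foxo1 has one on each side; Ebf1 has none.

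Per length of gene body, Brg1 dTAG-13 summits were denser in 5 of the 6 genes than over all bodies, where 0.263 summits fell per 100 kb; Id3, with 2 summits in 1.57 kb, is too short for a rate. Ebf1 had 1.79 per 100 kb, Pax5 1.61, Foxo1 2.45, Tcf3 4.09 and Tcf12 2.62. Tcf3 rests on 1 summit and Foxo1 on 2. In genes as short as Pax5, Foxo1, Tcf3 and Tcf12, 1 summit alone gives a rate above that of all bodies. Being denser therefore follows there from having a peak. EBF1 DMSO summits numbered 0.256 per 100 kb in Ebf1 and 0.538 in Pax5, beside 0.0145 over all bodies. The single Brg1 DMSO summit in Pax5 gave 0.538 per 100 kb, beside 0.00862 over all bodies. In these DMSO lists 1 summit exceeds the rate over all bodies in any of the 6 genes, so these rates say only that a peak is present.

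Related genes, partners and targets place these counts in the B-cell programme. None of 18 paralogues of the 6 genes had an EBF1 peak after dTAG-13, and 1 had one in DMSO, Pax7, a muscle-lineage factor, with fold enrichment 7.23 and 24 fragments in its body. Brg1 peaks stood at 4 of the 18 after dTAG-13 and at 0 in DMSO. Of 20 partners and regulators, EBF1 had peaks at 0 after dTAG-13 and at 1 in DMSO, Zfp423, whose product binds EBF1 and inhibits it, with fold enrichment 7.77 and 26 fragments. Brg1 had peaks at 14 of these 20 after dTAG-13 and at 0 in DMSO. By p the highest of the paralogues and partners were in Tcf4, another E protein gene (fold 9.23, 32 fragments), and in Ets1, a lymphoid transcription factor gene (fold 7.06, 40 fragments).

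Of 14 target genes of EBF1, PAX5 and E proteins, EBF1 had peaks at 0 after dTAG-13 and at 5 in DMSO, and Brg1 at 11 after dTAG-13 and at 5 in DMSO. The EBF1 DMSO peak at Igll1, which encodes a chain of the pre-B-cell receptor, had fold enrichment 12.8 and 45 fragments. It ranked 20 of 312, above those at Pax5, Ebf1, Foxo1 and Id3. The other EBF1 DMSO peaks were at Cd79b, a chain of the B-cell receptor (fold 8.08, 30 fragments), Vpreb2 and Vpreb3, of the VpreB family (fold 6.95 and 23 fragments, and fold 6.61 and 21 fragments), and Cd72, a B-cell surface receptor (fold 4.75, 15 fragments). The EBF1 DMSO peak counted at Vpreb2 lay 9761 bp outside the gene, and the Brg1 DMSO peak counted there lay 9739 bp outside it. Vpreb1 is a near-identical copy of Vpreb2, so reads within these genes may be split between them. Whether the copy reaches the site outside Vpreb2 was not examined. At Cd72 the Brg1 dTAG-13 list had its highest peak among these genes (fold 10.8, 33 fragments). In Brg1 DMSO the highest were at Igll1 (fold 7.35, 16 fragments), Blnk, an adaptor of the B-cell receptor (fold 6.91, 13 fragments), and Vpreb2 (fold 7.01, 11 fragments). Over all 52 of these genes, EBF1 had peaks at 0 after dTAG-13 and 7 in DMSO, and Brg1 at 29 after dTAG-13 and 5 in DMSO. The dTAG-13 and DMSO lists of Brg1 differ in background as above, and 12.2% of all protein-coding genes had a Brg1 peak after dTAG-13 and 0.817% in DMSO. An EBF1 peak stood at 0.0228% of all protein-coding genes after dTAG-13, from a list of 5 peaks, and at 1.28% in DMSO.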

How the data were processed

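ChIP-seq of EBF1 (EBF1-dTAG_C cells) and Brg1 (EBF1-dTAG_N cells) gave 4 deposited peak lists, 1 for each library, and the 4 inputs were not analysed here. The submitters' processing notes name MACS2 2.2.7.1 and, for reads, Bowtie2 2.3.5.1, with deepTools 3.3.2 and SAMtools 1.10, on GRCm38 or mm10. The setting of MACS2 is not given in the sources used here. Fold enrichment, as deposited, is the authors' ratio of summit pileup to local background, with 1 added to each. Deposited p and q values are −log10 values, and 10 times −log10 q, cut to a whole number, gives the deposited score. The last column, the authors' summit offset, placed each summit.

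Fold and p were solved together under a Poisson distribution with Python 3.11.15, numpy 2.4.6 and scipy 1.17.1. This gave whole fragments, within 0.02, at 100% of the summits of every list, and was tested on simulated peaks. The EBF1 libraries needed a scale of 0.818 after dTAG-13 and 0.863 in DMSO, and Brg1 none. The lowest background of a list stands for its depth. No source used here gives the read totals.

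Gene bounds, start sites and promoter sequences are RefSeq's for GRCm38.p6, with 21900 protein-coding genes; exon bounds were not used here. Samples were grouped by genotype, antibody and treatment label. With 1 library a group no test was run, and no p-value was computed. The 6 genes, and the lists of paralogues, partners, targets and cell type markers, were chosen with earlier results of these data known. Every peak of the 6 genes is named. Listed genes beyond these are named with values only if they had an EBF1 peak or 1 of the 3 highest Brg1 peaks of a list by p. Alternatives were stricter q and fold limits, a list of equal length or equal lowest p, other distance rules and other definitions of overlap.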

Additional observations from a re-analysis of the deposited data

Results flagged for a closer look

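Between conditions the 2 proteins' peak counts at the 6 genes moved in opposite directions, as their whole lists did. The EBF1 list held 0 such peaks after dTAG-13 and 4 in DMSO, a difference of -4, and the Brg1 list held 32 after dTAG-13 and 3 in DMSO, a difference of 29. The whole EBF1 list held 5 peaks after dTAG-13 and 312 in DMSO, and the whole Brg1 list 5206 after dTAG-13 and 234 in DMSO, and the 6 genes took 0.615% of the Brg1 list after dTAG-13 and 1.28% in DMSO, so the directions are not particular to the 6 genes. The difference between the proteins was not tested, since each count comes from 1 library and the proteins were mapped in different lines. The lowest background, the statistic used here for depth, was 3.54 times as high in the Brg1 dTAG-13 library as in the Brg1 DMSO library, and its part in the count was not tested. For EBF1 that ratio was 0.981.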

How the results depend on the processing

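Of 113 alternative values over 17 results, 30 were labelled as moved and 83 as the same. The label of same does not mean an equal value. A count kept it within a set ratio of the main count, and a share anywhere within the 95% interval of the main share. With few peaks the intervals were wide, such as 9.43 to 99.2% for Brg1 DMSO peaks meeting a Brg1 dTAG-13 peak. For shares the label therefore says little. The equal list length changed only the Brg1 dTAG-13 list, and the equal lowest p left the EBF1 dTAG-13 and Brg1 DMSO lists unchanged. Results of an unchanged list kept the label by construction. Brg1 dTAG-13 peaks at the 6 genes kept the label at 24 (limit of 20 kb), 26 (nearest bound of any gene) and 27 (equal lowest p), against 32. So did 2 Brg1 DMSO peaks (limit of 20 kb), against 3. With −log10 q of at least 5, so did a 33.3% share of EBF1 DMSO peaks meeting a Brg1 DMSO peak, against 50%. Of the 83, 27 are values of 0 that read the EBF1 dTAG-13 list and that a stricter limit cannot lower. With −log10 q of at least 5, Brg1 dTAG-13 peaks at the 6 genes fell to 7, at 3 genes (Pax5, Foxo1 and Tcf12), and to 19 of the 52 related genes. At 10 or more, the Brg1 dTAG-13 counts were 2 peaks, 2 genes (Pax5 and Foxo1) and 11 related genes. That limit left EBF1 DMSO with 1 peak, 1 gene (Pax5) and 3 related genes, and Brg1 DMSO with 0 peaks, 0 genes and 0 related genes. With fold enrichment of at least 5, the Brg1 dTAG-13 counts were 6 peaks, 3 genes and 18 related genes. When the Brg1 dTAG-13 list was shortened to the 234 peaks of the DMSO list, they were 2, 2 and 7. At an equal lowest p, EBF1 DMSO kept 1 peak, 1 gene (Pax5) and 4 related genes.

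Overlaps moved as the peaks did. With reciprocal overlap of 50%, 0 of 3 Brg1 DMSO peaks met a Brg1 dTAG-13 peak and 0 of 32 the other way round. Of EBF1 DMSO peaks, 0 of 4 met a Brg1 dTAG-13 peak. With −log10 q of at least 5, 2 of 7 Brg1 dTAG-13 peaks (28.6%) met a Brg1 DMSO peak. At that limit 0 of 3 EBF1 DMSO peaks met a Brg1 dTAG-13 peak, the Foxo1 EBF1 peak (−log10 q 4.62) having been removed. At 10 or more, 0 of 2 Brg1 dTAG-13 peaks met a Brg1 DMSO peak. The 1 EBF1 DMSO peak left met no Brg1 peak of either list, dTAG-13 or DMSO. No Brg1 DMSO peak was left at that limit to take a share of. In the shortened list 100% of the 2 Brg1 dTAG-13 peaks met a DMSO peak. Fewer peaks entered under each limit, by construction.

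Brg1 dTAG-13 peaks within Ebf1 numbered 3, against 7, both at an equal lowest p and when the nearest bound of any gene set the assignment. A distance limit of 20 kb left 24 Brg1 dTAG-13 peaks, 3 EBF1 DMSO peaks and 2 Brg1 DMSO peaks, and dropped the distal Foxo1 site. No paired analysis was possible because each group is 1 library and no test was run. Depth limits what can be read: a site not in a list had no summit past that list's threshold, which is not a measure of no binding.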
